A study of Mus musculus with 28 samples.

Results

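The genes of the cytosolic ribosomal proteins were followed by RNA-seq in germinal center B cells of mice. Members were all listed symbols that begin with Rpl or Rps and name a protein of either ribosomal subunit, without the Rps6k kinases and without hyphenated symbols. This gave 84 genes of 23382 listed symbols, 51 for the large and 33 for the small subunit. The 28 libraries fall into 6 groups by genotype, and all of them carry 1 Cg1Cre allele, which drives Cre recombinase in B cells that respond to antigen. D370Y libraries (5) are heterozygous for the Tbl1xr1 D370Y allele, and WT libraries (3) carry unmutated Tbl1xr1. ImuBcl6 D370Y libraries (5) add the ImuBcl6 allele, which expresses Bcl6 from the immunoglobulin heavy-chain locus, to heterozygous D370Y, and ImuBcl6 libraries (5) have that allele with unmutated Tbl1xr1. The remaining pair holds 5 libraries whose label is Tbl1xr1 KO/KO, and 5 of a Cre control with the genotype label of WT. Only for this pair do the labels name a kit, a stranded TruSeq one, and no kit is stated for the other groups. How many animals gave each library is not stated, so p-values measure the spread between these libraries, which may be technical in part.

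Each ribosome joins a large subunit, which forms peptide bonds, to a small subunit, which reads the message, and each subunit is built from ribosomal RNA and 1 copy of most of its proteins. Messenger RNAs of these proteins are abundant in dividing cells and begin with a run of pyrimidines, the 5' TOP motif, through which mTOR and Larp1 control their translation. Mammalian ribosomal protein genes have also left many processed pseudogenes, copies of their spliced messages elsewhere in the genome. Dividing germinal center B cells need a large supply of new ribosomes.

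Reads on listed genes came to 19.02 to 37.7 M per library. No D370Y or WT library exceeded 22.2 M. The germinal center markers Bcl6, Fas, Mki67, S1pr2, Mef2b and Gcet2 were present in every group. Tbl1xr1 stood at 102 ± 15.4 CPM (SD, n = 5) in libraries labelled KO and 86.0 ± 5.82 (n = 5) in Cre control libraries, so the targeted transcript was not lower there (log2 fold change 0.23 ± 0.11 SE, limma adjusted p = 0.527). Replicate 3 of the group labelled KO stands apart: 64.4% of its deposited denominator lay on listed genes, against 80.8% to 84.6% in the other 4 libraries labelled KO and the Cre controls. It also held 1633 CPM of the nuclear RNA Malat1, against 26.3 to 274 CPM in those libraries. Member counts, medians and fold changes between these libraries and the Cre controls are therefore given with and without it. The proliferation marker Mki67 averaged 1697 CPM in D370Y, 1805 in WT, 1251 in ImuBcl6 D370Y and 1505 in ImuBcl6 libraries, and 362 CPM in libraries labelled KO and 291 in Cre controls. Replicate 3 held 888 CPM of Mki67, against 169 to 316 CPM in the other libraries labelled KO.

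Because a read that falls on a sequence held by several genes can be lost or divided, the coding sequences of the members were searched for 50-base windows that also occur, on either strand, in a transcript of another gene of GENCODE M21, the GRCm38 annotation on which all 84 members were found. The genes below were chosen to show sequences that are shared throughout and one that is shared in part. Lower case marks bases inside at least 1 shared window and capitals mark bases outside all of them. Each sequence runs 5' to 3' from the start codon, without the stop codon. Rps28 (chr17:33819027-33824562, minus strand) and Rpl38 (chr11:114668524-114672331, plus strand) were shared throughout. Rps21 (chr2:180257377-180258445, plus strand) shared 45.5% of its windows.
Rps28: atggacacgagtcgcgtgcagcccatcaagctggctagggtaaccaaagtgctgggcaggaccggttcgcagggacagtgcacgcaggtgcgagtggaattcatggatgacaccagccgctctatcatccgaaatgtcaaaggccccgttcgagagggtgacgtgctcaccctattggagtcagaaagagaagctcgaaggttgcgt
Rpl38: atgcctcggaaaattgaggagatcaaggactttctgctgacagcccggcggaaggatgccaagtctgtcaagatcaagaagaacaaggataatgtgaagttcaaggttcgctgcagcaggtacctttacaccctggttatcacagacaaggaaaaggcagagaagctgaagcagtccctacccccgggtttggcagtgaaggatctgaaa
Rps21: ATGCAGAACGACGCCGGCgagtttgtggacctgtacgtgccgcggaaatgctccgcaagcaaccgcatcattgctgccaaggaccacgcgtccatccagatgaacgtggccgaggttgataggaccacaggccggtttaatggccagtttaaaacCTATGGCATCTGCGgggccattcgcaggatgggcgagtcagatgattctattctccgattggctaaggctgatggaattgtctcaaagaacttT

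Members took 15141 to 20025 CPM in all in D370Y libraries and 17255 to 18024 in WT libraries. In the ImuBcl6 D370Y libraries the sum was 28751 to 32452 CPM, and in the ImuBcl6 libraries 21478 to 28929. Libraries labelled KO had 20247 to 39303 CPM, with replicate 3 the lowest, and Cre control libraries 31426 to 37049. Every D370Y and WT library thus lay below every library of the other 4 groups. As a share of the reads on listed genes, members made up 1.92% to 2.44% in D370Y and 2.09% to 2.16% in WT libraries. The share was 3.58% to 4.06% in ImuBcl6 D370Y, 2.65% to 3.53% in ImuBcl6, 3.14% to 4.72% in libraries labelled KO and 3.75% to 4.59% in Cre controls, so D370Y and WT libraries were the lowest on this scale too. In whole populations, fewer cells of a type and less RNA per cell cannot be told apart. Depth also separates the D370Y and WT libraries from the others. WT and Cre control libraries share a genotype label and lay on opposite sides, at 17255 to 18024 and 31426 to 37049 CPM. WT belongs to the library set of the D370Y and ImuBcl6 groups, and Cre control to that of the libraries labelled KO. The part of the set in the sums was not tested. Where genotype differs between sets as well, genotype and library set cannot be told apart. Mki67 separates groups too, being lowest in the labelled KO and Cre control groups, and its part in the member sums was not tested.

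**Figure D1:**
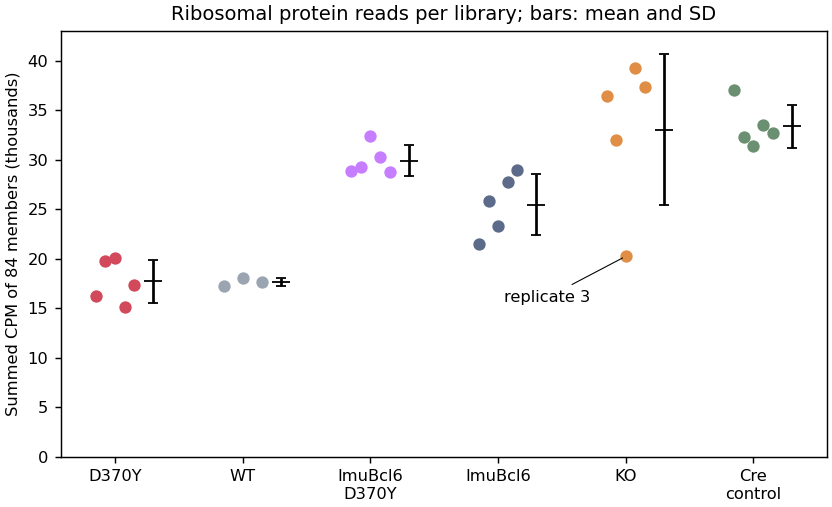
Summed CPM of the 84 members (vertical axis, in units of 1000 CPM) in each library, by group; each point is a library and the bar beside it is the group mean with its SD. D370Y and WT libraries sit between 15141 and 20025 CPM, below all other libraries, and replicate 3 of the group labelled KO sits at 20247.

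Of the 84 members, 11 were near absent from D370Y and WT libraries, with both group means under 0.1 of the mean of the other 4 groups and that mean at 1 CPM or more. These values chose the 11, so they are described and not tested. Among them were Rps7, Rps16, Rps25, Rps28, Rps29 and Rpsa of the small subunit and Rpl19, Rpl21, Rpl35 and Rpl38 of the large subunit.

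Rpl35, which lies near the exit of the nascent chain, had 0.553, 0.880, 0.767, 0.740 and 0.902 CPM in D370Y and 1.08, 0.947 and 0.842 CPM in WT libraries. Its group means elsewhere were 100.5 ± 9.37 CPM in ImuBcl6 D370Y, 82.7 ± 17.1 in ImuBcl6, 106 ± 32.4 in libraries labelled KO and 113 ± 10.6 in Cre controls (SD, n = 5 each). Rps28, a short small subunit protein near the exit of the mRNA, averaged 0.826 ± 0.197 CPM in D370Y (n = 5) and 0.753 ± 0.135 in WT libraries (n = 3). Against this it stood at 54.2 ± 7.17, 50.1 ± 8.82, 66.4 ± 18.2 and 68.3 ± 7.11 CPM in the ImuBcl6 D370Y, ImuBcl6, labelled KO and Cre control groups (n = 5 each). Both genes were chosen by this gap between group means, so the gap is given as a description only.

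Rpsa, the laminin receptor homologue of the small subunit, was the highest of the 11 in CPM. It had 22.2, 24.4, 23.9, 21.6 and 21.9 CPM in D370Y and 22.2, 25.9 and 22.8 CPM in WT libraries. The ImuBcl6 D370Y libraries had 457 to 522 CPM of it and the ImuBcl6 libraries 297 to 488 CPM. The libraries labelled KO had 339 to 733 CPM and the Cre controls 579.7 to 691 CPM. Rpl38, which in mice shapes the translation of Hox messages, had 0.269 to 0.623 CPM in D370Y and 0.129 to 0.399 in WT libraries, where 3 reads are worth 0.111 to 0.133 CPM. Rps29 was the nearest to the limit from inside, with a D370Y ratio of 0.0832. Just outside lay Rpl36a and Rpl36, with D370Y ratios of 0.101 and 0.106 and WT ratios of 0.0893 and 0.0834.

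**Figure D2:**
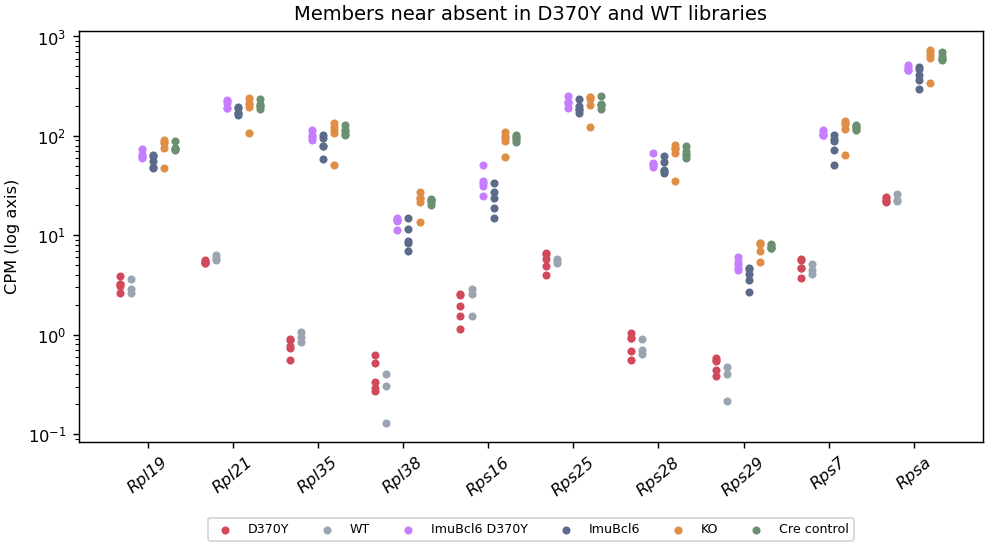
CPM (vertical axis, log scale) of 10 near-absent members in every library, with groups side by side within each gene. D370Y and WT points lie at 0.129 to 25.9 CPM, and the points of the other 4 groups at 2.68 to 733 CPM, apart from the D370Y and WT points of the same gene.

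The same rule picked 219 of 10718 genes with a mean of at least 1 CPM in the other 4 groups, 2.04% of them, against 11 of the 80 members at that level, which is 13.8%. Of the 81 members expressed at 1 CPM or more in any group mean, 71 were lower in WT than in the mean of the other 4 groups and 10 were higher. For 40 of the 81, every D370Y and WT library lay below every other library, a pattern shown by 5.12% of 10959 genes. In 3 of the 81, Rplp2, Rpl23 and Rpl37, every such library lay above, a pattern shown by 8.91% of genes; with CPM over the listed genes without members, or with TMM scaling, Rpl37 was no longer among them. The number below was 44 to 46 of 81 under these and the listed-read scaling, where 7.39% to 8.16% of genes lay below. These counts are a description with no test.

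Rplp2, 1 of the paired acidic proteins of the stalk that recruits elongation factors, had 210.2, 272, 319, 213 and 264 CPM in D370Y and 282, 233 and 268 CPM in WT libraries. It had 87.7 to 102 CPM in ImuBcl6 D370Y and 55.9 to 104 CPM in ImuBcl6 libraries, with 105 to 191 CPM in libraries labelled KO and 128 to 173 CPM in Cre controls. Its partner Rplp1 lay the other way, apart from ImuBcl6 replicates 1 and 3, at 533 to 721 CPM in D370Y and 580.0 to 649.7 CPM in WT libraries, against 911 to 973 in ImuBcl6 D370Y and 411 to 884 in ImuBcl6. Rplp1 reached 904 to 1940.1 CPM in libraries labelled KO and 1493 to 1669 CPM in Cre controls. The anchor of the stalk, Rplp0, had group means of 1012 and 1003 CPM in D370Y and WT, 1865 and 1632 CPM in ImuBcl6 D370Y and ImuBcl6, and 2549 and 2521 CPM in the labelled KO and Cre control groups. The RNAs of these stalk proteins were thus listed in unequal proportion between these groups, and no protein was measured. Rplp0, Rplp1 and Rplp2 shared 60.3%, 60.4% and 66.2% of their coding windows with other genes, whose part in these values was not tested.

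Per kilobase of coding length, Rps3 had the highest group mean in WT libraries, at 2640 CPM per kb. Rpl41, Rpl8 and Rpl4 stood at 2509, 1968 and 1862 CPM per kb. Rpl41, the smallest member with a coding length of 75 bases, led all 4 other groups at 8719 to 13377 CPM per kb. Its transcript is mostly untranslated, so this scale overstates it. At the other end, Rpl26 had 0 reads in every library, and Rpl10l and Rpl3l stayed below 1 CPM in every group mean. Rpl10l and Rpl3l are paralogues known from testis and from muscle, and Rpl26 is a core large subunit protein with 87.3% of its windows shared. Rpl26 is listed at 0, and its transcription was not assessed otherwise.

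Sharing went with the level in every group. The 29 members whose coding windows were all shared had a median of 7.42 CPM per kb in WT libraries. The median was 208 for the 38 members with 50% to under 100% shared, and 1121 for the 13 members under 50%. In Cre controls the medians were 28.2, 457 and 2734 CPM per kb. Across the 80 expressed members with a coding sequence, Spearman's rho between the percent shared and CPM per kb was -0.72 in D370Y, -0.70 in WT, -0.63 in both ImuBcl6 groups, and -0.62 in the labelled KO and Cre control groups. These are correlations across genes, which share libraries and are not independent replicates. Between the percent shared and the ratio of WT to the other 4 groups, Spearman's rho was -0.34 across the 81 expressed members. All 11 near-absent members had at least 91.6% of their windows shared, and 7 had 100%. Of the 70 other expressed members, 33 had at least 90% shared and 22 had 100%. Members with 100% shared were not all near absent by this rule. Rps27, with 100% shared, was low in every group. Its group means were 1.53 and 1.37 CPM in D370Y and WT and 0.849 to 2.14 CPM in the other 4 groups. Rps6, the S6 kinase substrate, also had 100% shared. It stood at 13.6 to 22.5 CPM in D370Y and WT and 11.1 to 25.95 CPM elsewhere. The 6 listed hyphenated ribosomal protein pseudogene symbols, which are not members, summed to 1.44 to 2.19 CPM in D370Y and 0.861 to 1.08 CPM in WT libraries. In the libraries of the other 4 groups they summed to 57.0 to 127 CPM. Whether sharing accounts for the near-absent values was not tested.

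**Figure D3:**
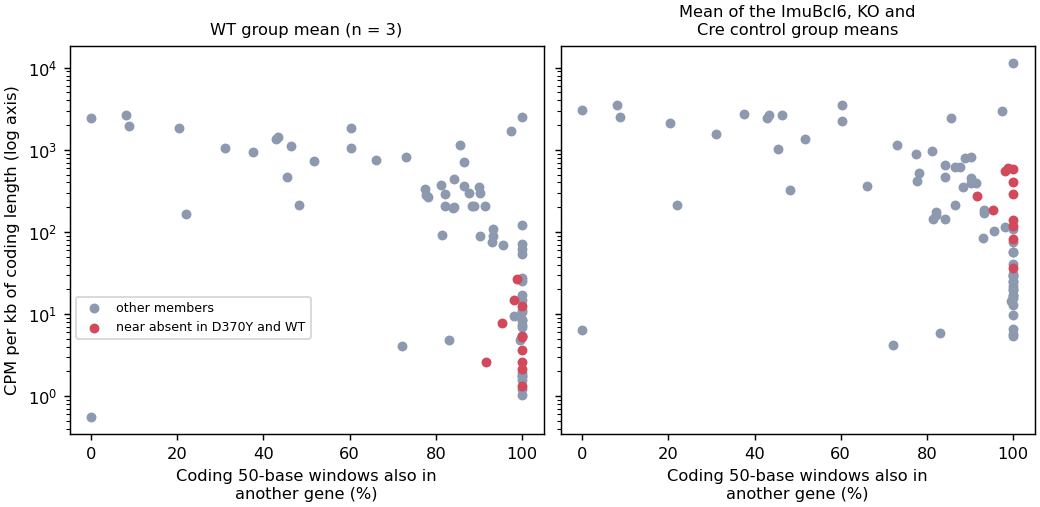
Percent of a member's 50-base coding windows found in another gene (horizontal axis) against CPM per kb of coding length (vertical axis, log scale), in WT libraries (left) and as the mean of the other 4 groups (right); each of the 80 points is a gene, with near-absent members in red. Points fall toward the right in both panels, and the red points sit at 91.6% or more.

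Against WT, no member passed in D370Y libraries at the threshold used throughout, a Benjamini-Hochberg adjusted p below 0.05 in limma over all genes tested. Of the 71 members with at least 1 CPM in 3 libraries, 0 were called, where 3.55% of 10600 genes were. A single member had an unadjusted p below 0.05, against 18.3% of all genes, and edgeR and DESeq2 on recovered reads also called 0 members, with 3.38% and 6.22% of all genes called. The median log2 fold change was -0.01 over the 71 members and -0.02 over all genes, with 32 members above 0 and a range of -0.19 to 0.41. Both medians were 0.02 to 0.03 when CPM were taken over listed reads.

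Rps13, a small subunit protein, had the smallest p. It had 1.33, 1.13, 1.15, 1.75 and 1.07 CPM in D370Y and 0.775, 0.732 and 0.620 CPM in WT libraries. All 5 D370Y libraries lay above the 3 WT libraries, which is true of 7.50% of genes tested, and the log2 fold change was 0.41 ± 0.13 SE (adjusted p = 0.115). The next members by p were Rpl36 at 0.26 ± 0.13, Rpl15 at -0.14 ± 0.09 and Rpl23 at -0.15 ± 0.09 (limma adjusted p = 0.317, 0.418 and 0.423). Rpl21 and Rpl27a were lower in every D370Y library than in any WT library, against 7.27% of genes.

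Members named for their role gave no call with D370Y either. Rpl5 and Rpl11, which with 5S RNA can bind the p53 regulator Mdm2, had log2 fold changes of -0.05 ± 0.10 and 0.06 ± 0.12. Rps6 had -0.04 ± 0.13, and Rps19, the gene most often mutated in human Diamond-Blackfan anemia, 0.03 ± 0.10. Rpl13a, part of the human GAIT complex, had 0.00 ± 0.11, and Rpl22 and its paralogue Rpl22l1 had -0.07 ± 0.10 and -0.15 ± 0.11. The stalk genes Rplp0, Rplp1 and Rplp2 lay at 0.01 ± 0.08, -0.03 ± 0.10 and -0.04 ± 0.13. Rpsa lay at -0.05 ± 0.08. A value that missed the threshold does not show that the groups were alike.

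Other markers did differ between these groups. Of 5 naive B cell markers 4 rose, at summed levels of 402 to 585 CPM in D370Y and 327 to 361 CPM in WT libraries. All 4 myeloid markers tested rose, at 19.2 to 33.2 CPM in D370Y and 7.57 to 9.68 CPM in WT libraries, and Gcet2 fell among the 10 germinal center markers. Of 5 plasma cell markers 2 rose, Prdm1 (1.07 ± 0.26, limma adjusted p = 0.0466) and Irf4 (0.52 ± 0.09, limma adjusted p = 0.00779), and the list summed to 1393 to 2935 CPM in D370Y and 1751 to 1962 CPM in WT libraries. The part of these markers in the member values was not tested. Xist stood at 486 to 1460.3 CPM in D370Y and 2.22 to 9.12 CPM in WT libraries, so sex and genotype cannot be told apart. No member was called in either direction beside these changes. Among the other translation lists, 0 of 4 further ribosomal genes, 0 of 38 translation factors, 0 of 56 assembly factors and 0 of 74 mitochondrial ribosomal proteins were called, at medians of 0.03, -0.05, 0.03 and -0.05.

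In the presence of ImuBcl6, D370Y went with higher levels across the members. Of 78 members tested, 8 rose and 0 fell, where 2.80% of 10784 genes rose and 5.38% fell (8.18% in either direction). All 78 had a log2 fold change above 0, against 47.9% of all genes, with a range of 0.01 to 0.56. The median was 0.23 over the members and -0.01 over all genes. The unadjusted p was below 0.05 for 48 members, all of them higher, and for 23.9% of all genes. Members share libraries and move together between replicates, so the 78 are not 78 independent observations. Summed over members, the ImuBcl6 D370Y libraries held 28832, 29322, 32452, 30256 and 28751 CPM, and the ImuBcl6 libraries 21478, 25882, 23352, 27745 and 28929 CPM. One ImuBcl6 library, replicate 5, lay within the range of the ImuBcl6 D370Y libraries. In the same order, Mki67 stood at 2006, 1521, 1684, 1189 and 1125 CPM in the ImuBcl6 libraries, the reverse of the ranking of their sums. In the ImuBcl6 D370Y libraries it was 1558, 1401, 958, 935 and 1405 CPM, lowest in replicates 3 and 4, whose sums were the highest. The part of Mki67 in the higher member levels was not tested.

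**Figure D4:**
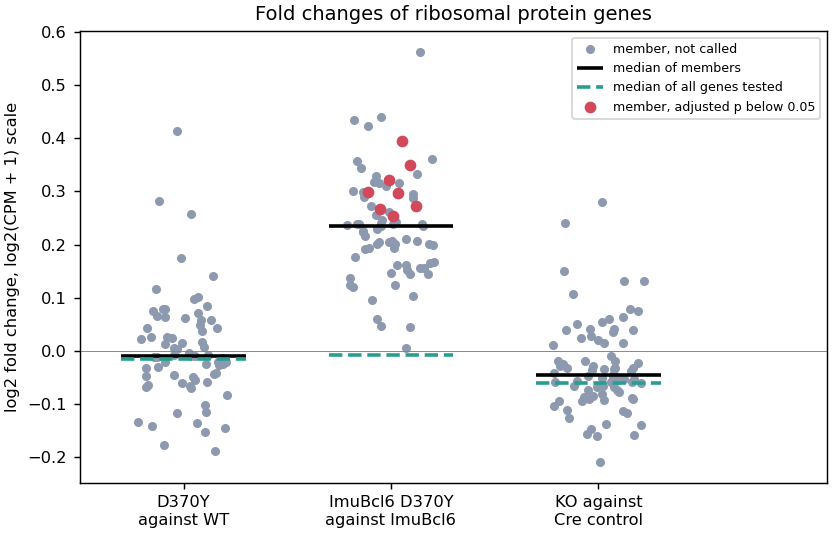
Log2 fold change on the log2(CPM + 1) scale (vertical axis) of each member tested in the 3 comparisons; red points are members with adjusted p below 0.05, black lines the medians of the members and green dashed lines the medians of all genes tested. Only the middle column, ImuBcl6 D370Y against ImuBcl6, has all points above 0, with a median of 0.23 against -0.01 for all genes.

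The called members came from both subunits, 5 from the large and 3 from the small. Rpl4, whose protein lines the tunnel of the nascent chain, had 3508, 3444, 3592, 3049 and 3219 CPM in ImuBcl6 D370Y and 2800.1, 2804, 2672, 2879 and 2918 CPM in ImuBcl6 libraries. The groups did not overlap (log2 fold change 0.25 ± 0.05 SE, limma adjusted p = 0.0130). Rpl7, a core protein of the large subunit, had 909, 915, 943, 829 and 825 CPM in ImuBcl6 D370Y, against 743, 720.1, 691, 750.1 and 764 CPM in ImuBcl6 libraries. These groups were apart as well (0.27 ± 0.05, adjusted p = 0.0101). Of the 8 called members, Rpl4 and Rpl7 were the 2 that were called under all 19 settings tried. Rps24, mutated in some human Diamond-Blackfan families, had 243, 244, 264, 228 and 215 CPM in ImuBcl6 D370Y and 179.6, 192, 179.9, 206 and 214 CPM in ImuBcl6 libraries. Its closest libraries differed by about 1 CPM (0.30 ± 0.07, adjusted p = 0.0202).

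Rpl22l1, the paralogue that can stand in for Rpl22, had 66.5, 62.6, 67.1, 51.2 and 62.0 CPM in ImuBcl6 D370Y and 55.3, 45.6, 44.5, 48.5 and 47.3 CPM in ImuBcl6 libraries. Replicate 4 of ImuBcl6 D370Y fell below replicate 1 of ImuBcl6, so these groups overlapped (0.35 ± 0.08, adjusted p = 0.0209). Rpl22 itself averaged 644 CPM in ImuBcl6 D370Y and 563 CPM in ImuBcl6 libraries (0.20 ± 0.08, adjusted p = 0.137). Rpl37a, which holds a zinc finger, averaged 38.0 CPM in ImuBcl6 D370Y and 31.3 CPM in ImuBcl6 libraries (0.27 ± 0.07, adjusted p = 0.0364).

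The remaining called members were low. Rps23, at the decoding center, had 5.12, 5.61, 4.97, 6.01 and 6.06 CPM in ImuBcl6 D370Y and 3.44, 4.93, 3.65, 4.25 and 3.73 CPM in ImuBcl6 libraries (0.39 ± 0.10, adjusted p = 0.0329). Rpl36a, an X-linked large subunit gene, had 7.29, 7.28, 7.69, 6.66 and 6.76 CPM in ImuBcl6 D370Y, against 6.13, 5.94, 4.71, 5.23 and 5.61 CPM in ImuBcl6 libraries (0.32 ± 0.09, adjusted p = 0.0433). In both genes every ImuBcl6 D370Y library lay above every ImuBcl6 library, and both had 100% of their windows shared with other genes. In all, 14 members were higher in every ImuBcl6 D370Y library, 17.9% of those tested against 3.32% of all genes, and 0 were lower in every one, against 5.64% of all genes. They were 7 of the 8 called members and Rpl15, Rplp1, Rps7, Rps9, Rps19, Rps20 and Rps27a.

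**Figure D5:**
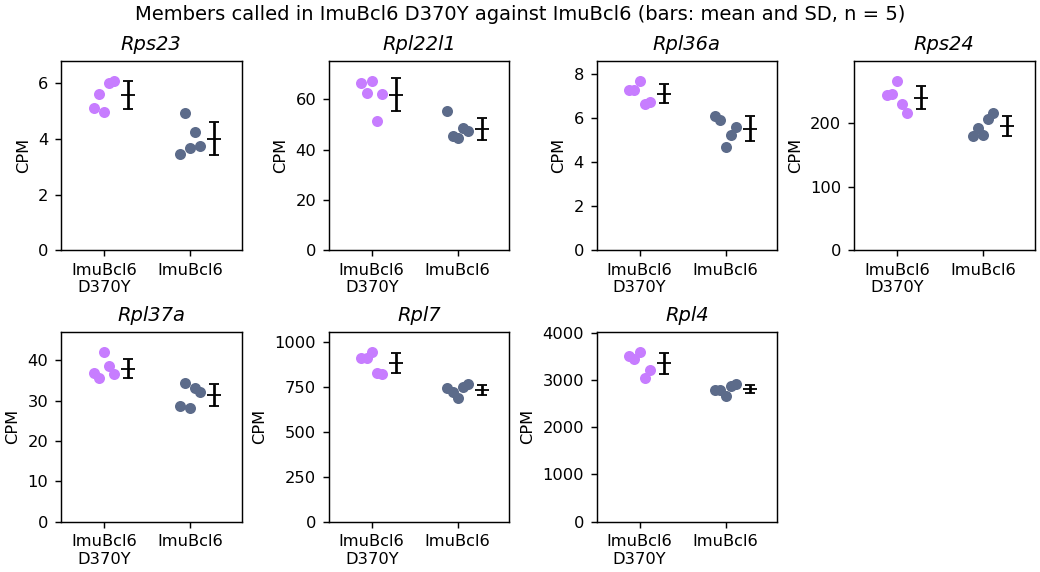
CPM (vertical axes, from 0) of 7 called members in ImuBcl6 D370Y (left) and ImuBcl6 (right) libraries, with the group mean and SD beside the points (n = 5 each). The ImuBcl6 D370Y points lie above all ImuBcl6 points except in the panel for Rpl22l1, where 51.2 CPM lies below 55.3 CPM.

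Members named for their role had values in the same direction, none of which passed the test. Rplp1 had 917, 911, 944, 964 and 973 CPM in ImuBcl6 D370Y and 411, 816, 628, 884 and 878 CPM in ImuBcl6 libraries (0.43 ± 0.17, limma adjusted p = 0.140). ImuBcl6 replicates 1 and 3 were the lowest, and the groups did not overlap. Rplp0 and Rplp2 had 0.21 ± 0.10 and 0.20 ± 0.14, Rpsa 0.25 ± 0.12, Rps6 0.17 ± 0.07 and Rps19 0.23 ± 0.07. Rpl5 and Rpl11 had 0.10 ± 0.12 and 0.21 ± 0.09, and Rpl13a 0.30 ± 0.10. Among paralogues, Rps27l had 0.15 ± 0.08 and Rpl7l1, a nucleolar relative of Rpl7, 0.05 ± 0.06. The largest fold change, 0.56 in Rps16, and the smallest, 0.01 in Rpl30, were not called either.

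How many members passed depended on single libraries. The count was 2 without ImuBcl6 D370Y replicate 2 (5.04% of all genes called) and 2 without ImuBcl6 replicate 3 (4% of all genes). It was 3 without ImuBcl6 D370Y replicate 3 (4.62%) and 5 without replicate 5 of that group (6.23%). Without ImuBcl6 replicate 5 it was 18 (7.81%). EdgeR called 9 members (7.35% of all genes) and DESeq2 23 (12.8%). The median stayed between 0.18 and 0.27 in all of these fits. Sex-linked RNA separated the groups as well, with Xist at 0.299 to 1.39 CPM in ImuBcl6 D370Y and 304 to 638 CPM in ImuBcl6 libraries, so sex and D370Y cannot be told apart here.

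Markers of other cells moved beside the members. Of 5 naive B cell markers 3 rose, Cd38 and Ccr7 among them, and the list summed to 296 to 391 CPM in ImuBcl6 D370Y and 218 to 264 CPM in ImuBcl6 libraries. Of 4 myeloid markers tested, out of 5, 3 rose (Itgam, Emr1 and Lyz2), at sums of 15.7 to 33.6 CPM in ImuBcl6 D370Y and 7.36 to 10.3 CPM in ImuBcl6 libraries. The T cell list summed to 4.47 to 10.6 CPM in ImuBcl6 D370Y and 1.54 to 3.56 CPM in ImuBcl6 libraries, with Cd3g, the 1 marker of 5 tested, called. Of the 10 germinal center markers, Gcet2 and Bcl6 fell, and 0 of 5 plasma cell markers were called. Their part in the result was not tested.

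The other parts of the translation machinery did not all follow. Of 4 further ribosomal genes with other names 0 were called, at a median log2 fold change of 0.25. Fau, whose product carries a small subunit protein, had 0.31 ± 0.13, Gnb2l1, the Rack1 scaffold of the small subunit, 0.18 ± 0.08 and Rpl36al 0.17 ± 0.06. Of 38 translation factors 2 rose and 3 fell, with a median of 0.04. The risers were Naca, a chaperone of nascent chains (0.25 ± 0.06, limma adjusted p = 0.0146), and the elongation factor Eef1a1 (0.19 ± 0.05, limma adjusted p = 0.0380), both of which carry TOP messages. Larp1, which binds TOP messages (-0.22 ± 0.05), the eIF4E inhibitor Eif4ebp2 (-0.30 ± 0.06) and the scaffold Eif4g1 (-0.18 ± 0.05) fell, at limma adjusted p of 0.0157, 0.00927 and 0.0433. Of 56 factors of ribosome assembly 0 were called, at a median of 0.02. Of 76 mitochondrial ribosomal proteins 1 rose (Mrpl41, 0.31 ± 0.07, limma adjusted p = 0.0177), at a median of 0.11.

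Start sites of 6 called members are shown because these genes rose together and belong to a family known for TOP messages. The sequences, from RefSeq on GRCm38.p6, run from 40 bases before to 20 bases from the annotated start, 5' to 3' on the gene's strand, which is plus for all 6. Capitals mark the longest run of C or T that reaches within 5 bases of the start. They lie at chr9:64173347-64173406 for Rpl4, chr3:28805468-28805527 for Rpl22l1, chr14:24490638-24490697 for Rps24, chr13:90923082-90923141 for Rps23, chrX:134585614-134585673 for Rpl36a and chr1:72711220-72711279 for Rpl37a.
Rpl4: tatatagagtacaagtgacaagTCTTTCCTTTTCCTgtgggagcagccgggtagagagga
Rpl22l1: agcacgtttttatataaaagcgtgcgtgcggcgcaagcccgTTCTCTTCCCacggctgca
Rps24: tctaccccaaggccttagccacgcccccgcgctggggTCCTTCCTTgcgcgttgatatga
Rps23: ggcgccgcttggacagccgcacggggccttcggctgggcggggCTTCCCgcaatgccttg
Rpl36a: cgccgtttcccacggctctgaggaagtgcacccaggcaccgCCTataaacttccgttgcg
Rpl37a: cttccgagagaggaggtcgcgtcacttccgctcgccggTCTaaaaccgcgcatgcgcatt

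The runs measured 14, 10, 9, 6, 3 and 3 bases in this order. A run of 8 or more was found at 24 of the 63 members with a RefSeq promoter (38.1%) and at 3068 of 27025 genes (11.4%), on the gene's strand and with the longest run kept per gene. Called members thus include genes with a long and with a short run near the annotated start, which may lie off the start used in these cells. The run of Rpl4 ends before its annotated start, so these lengths do not measure the TOP motif itself.

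No member passed the threshold between the libraries labelled KO and the Cre controls. Of 80 members tested 0 were called, where 1.39% of 10514 genes were. One had an unadjusted p below 0.05, against 9.05% of all genes, and edgeR and DESeq2 also called 0 members, with 2.26% and 4.33% of all genes called. No member was higher or lower in every library labelled KO than in every Cre control, a pattern shown upward by 0.742% and downward by 3.49% of genes. The median was -0.05 over the members and -0.06 over all genes, and with CPM over listed reads or TMM scaling the median of the members was 0.02 or 0.01. Without replicate 3 of the group labelled KO, the median of the members was 0.11 and that of all genes 0.00, 77 of 80 members lay above 0 against 50.4% of all genes, and 11 had an unadjusted p below 0.05 against 17.6% of all genes. Again 0 members were called, where 4.25% of genes were.

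Rpl23a, a docking site for the signal recognition particle, had the smallest p. It had 2.84, 1.96, 1.90, 2.88 and 2.99 CPM in libraries labelled KO and 1.80, 2.10, 2.07, 1.76 and 1.64 CPM in Cre controls. Replicates 1, 4 and 5 lay above every Cre control, and replicates 2 and 3 within their range (0.28 ± 0.12, limma adjusted p = 0.485; without replicate 3, 0.34 ± 0.11 and limma adjusted p = 0.122). Xist stood at 0.0262 to 0.202 CPM in replicates 1, 4 and 5 and at 148 and 948 CPM in replicates 2 and 3. In 4 Cre controls it was 86.7 to 179 CPM, and in replicate 4 it was 0.108 CPM, so sex was uneven between the groups, and its part in the Rpl23a values was not tested. The next were Rps27 at 0.24 ± 0.13, Rpl12 at 0.15 ± 0.12 and Rpl15 at 0.13 ± 0.12. Without replicate 3, Rps27 had 0.30 ± 0.13 and Rpl15 0.18 ± 0.11. Without replicate 3 the smallest p was that of Rpl12, a protein of the stalk base. It had 18.3, 18.96, 11.9, 18.4 and 18.3 CPM in libraries labelled KO, where 11.9 is replicate 3, and 14.9, 13.7, 16.4, 17.02 and 14.2 CPM in Cre controls. Leaving replicate 3 out put the groups apart, at 0.27 ± 0.07 (limma adjusted p = 0.0596).

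Replicate 3 of the libraries labelled KO was low across the members. Its members lay a median of 0.62 below their group means on the log2 scale, and 2 of 81 lay above. Rplp0 had 2814, 2515, 1574, 2978 and 2865 CPM in libraries labelled KO and 2625, 2449.7, 2459.8, 2574 and 2497 CPM in Cre controls. The third value was the lowest of both groups, and 3 of the other 4 lay above every Cre control. With all 5 replicates the change was -0.02 ± 0.16, and without replicate 3 it was 0.15 ± 0.05 (limma adjusted p = 0.149). Rpl5 and Rpl11 stood at 0.01 ± 0.13 and 0.08 ± 0.14, Rps6 at -0.08 ± 0.12, Rps19 at -0.01 ± 0.16 and Rpsa at -0.09 ± 0.17 with all replicates. The other members named for their role were Rplp1 at -0.07 ± 0.16, Rplp2 at -0.03 ± 0.14, Rpl22 at -0.13 ± 0.16 and Rpl13a at -0.07 ± 0.17. Leaving replicate 3 out turned the sign of most of these values. Without it, Rpl5 had -0.01 ± 0.13, Rpl11 0.23 ± 0.08, Rps6 -0.02 ± 0.11, Rps19 0.16 ± 0.08 and Rpsa 0.11 ± 0.06. Rplp1 then had 0.12 ± 0.06, Rplp2 0.11 ± 0.09, Rpl22 0.06 ± 0.07 and Rpl13a 0.13 ± 0.07, and none of these members was called. In the 4 other translation lists 0 genes were called, at medians of -0.04 to -0.08 except -0.03 for the assembly factors. Without replicate 3 again 0 were called, and the medians were 0.12 for the further ribosomal genes, 0.00 for translation factors, 0.04 for assembly factors and 0.05 for mitochondrial ribosomal proteins. Of the markers, Gcet2 fell, Klf2 rose and 0 of 4 myeloid markers tested passed, at summed levels of 26.2 to 60.0 CPM in libraries labelled KO and 31.6 to 43.1 CPM in Cre controls. Of 5 naive B cell markers 1 rose with all replicates and 3 rose without replicate 3.

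Whether the D370Y change differed between backgrounds was tested as a contrast. Xist was high in D370Y (486 to 1460.3 CPM) and low in WT libraries (2.22 to 9.12 CPM). With ImuBcl6 it was the other way, at 0.299 to 1.39 CPM in ImuBcl6 D370Y and 304 to 638 CPM in ImuBcl6 libraries. Sex is thus reversed between the pairs, so sex and background cannot be told apart in this contrast. The change with ImuBcl6 minus the change without it passed for 0 of 80 members, where 0.663% of 11166 genes passed; edgeR called 0 (0.636% of genes) and DESeq2 called 1, Rpl22l1 (1.65% of genes). The median difference was 0.23 over the members and -0.01 over all genes, 78 members lay above 0 against 48.5% of all genes, and 18 had an unadjusted p below 0.05 against 12.3% of all genes. Rpl22l1 had the smallest p in limma as well (0.50 ± 0.14, limma adjusted p = 0.119), with a change of 0.35 on the ImuBcl6 background and -0.15 without it. The change in libraries labelled KO minus the D370Y change passed for 0 of 81 members, where 0.145% of 11041 genes passed, at a median of -0.04 over members and -0.05 over all genes (0.05 and 0.04 with TMM scaling). In this contrast 2 members and 6.14% of all genes had an unadjusted p below 0.05, and edgeR and DESeq2 called 0, with 0.0453% and 0.389% of genes called. Without replicate 3 of the group labelled KO, limma again called 0 members, where 0.263% of genes were called, and the median was 0.12 over members and 0.01 over all genes. In that fit 71 of 81 members lay above 0, against 51.8% of all genes. An unadjusted limma p below 0.05 was found for 4 members and 9.88% of all genes. Xist was mixed within libraries labelled KO (0.0262 to 948 CPM) and Cre controls (0.108 to 179 CPM). The part of sex and of library set in this contrast was not tested.

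Paralogues were followed across the groups beside the core genes. Rps27l, a p53 target in human cells, averaged 54.5 and 54.2 CPM in D370Y and WT, 84.7 and 76.8 in ImuBcl6 D370Y and ImuBcl6, and 79.4 and 86.5 in the labelled KO and Cre control groups. Rpl22l1 averaged 67.2 and 74.4 CPM in D370Y and WT libraries, 61.9 and 48.2 in ImuBcl6 D370Y and ImuBcl6, and 51.4 and 48.7 in the labelled KO and Cre control groups. Rpl39l, known from male germ cells, was uneven within groups, with 7.23 CPM in ImuBcl6 replicate 5 and 0.142 to 0.987 CPM in the other ImuBcl6 libraries. The symbol Rps4y2, which GENCODE lists as the transcribed pseudogene Rps4l, stayed at 0.998 to 2.52 CPM in D370Y and 1.06 to 2.37 CPM in WT libraries. It reached 7.55 CPM in libraries labelled KO and 7.49 CPM in Cre controls.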

How the data were processed

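RNA-seq was measured in 28 libraries of 6 groups. Values are CPM deposited by the authors, 1 file per library; per the submitters' processing notes STAR and mm10 were used, and the counting tool, strand setting and annotation are not given in the sources used here. In every library 100% of the deposited CPM values were whole multiples of 1 read within 0.01, so reads were recovered. Limma 3.58.1 (R 4.3.3, trend and robust) was run on log2(CPM + 1) over all genes with at least 1 CPM in as many libraries as the smaller group holds, and p-values were adjusted by the Benjamini-Hochberg method over all of them. The count tests on recovered reads, edgeR 4.0.16 and DESeq2 1.42.0, called 358 and 659 genes between D370Y and WT, where limma called 376. A fold change on this scale understates the change of low genes. Fits were run on simulated reads in which genes varied independently. That simulation held no shift common to a library, so it cannot speak for members that move together. Named members were the called ones, the 4 smallest p-values where fewer than 4 were called, members with a known role, paralogues and near-absent genes. A few genes are not reported here by name. Members and lists were chosen with earlier results of these data known. Shared windows were counted against GENCODE M21 transcripts and start sites were read from RefSeq. A floor of 3 reads is worth 0.0640 to 0.133 CPM and covers counting error only.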

Additional observations from a re-analysis of the deposited data

Results flagged for a closer look

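Within each group of 5, the highest and lowest library of 39 members and of the member sum were set against the gap to the next library. Of 200 such groups 12 stood apart, where chance gives about 10 at 1 in 20. In libraries labelled KO, replicate 3 was low in Rpl4 (1579.8 CPM, others 2366 to 2624), Rpl7l1 (106 CPM, others 161 to 179) and Rpl12 (11.9 CPM, others 18.3 to 18.96). Cre control replicate 1 was high in Rps4x (688 CPM, others 557 to 585), Rps27l (93.5 CPM, others 84.1 to 85.6), Rpl19 (89.5 CPM, others 71.3 to 75.3) and Rpl22l1 (60.7 CPM, others 44.2 to 46.9). Among ImuBcl6 D370Y libraries, replicate 3 was high in Rps28 (66.6 CPM, others 48.1 to 53.2), and replicate 1 was low in Rpl38 (11.2 CPM, others 14.0 to 14.9). Rpl39l was high in ImuBcl6 D370Y replicate 2 (2.82 CPM, others 0 to 0.807), in ImuBcl6 replicate 5 (7.23 CPM, others 0.142 to 0.987) and in replicate 4 labelled KO (1.34 CPM, others 0.616 to 0.735).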

How the results depend on the processing

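In ImuBcl6 D370Y against ImuBcl6, where 8 members were called (8.18% of all genes), DESeq2 called 23 (12.8%) and the replicate block 16 (9.27%). Leaving out 1 library in turn called 2 to 18 members and 4% to 9.36% of all genes. The other settings called 6 to 11 members and 4.08% to 8.09% of all genes. With the replicate block, 1 of 71 members (1.41%) was called in D370Y against WT, where 7.21% of all genes were. In libraries labelled KO against Cre controls the block called 0 members and 1.74% of all genes. Same-numbered libraries deviated together in only some pairs (r of -0.28 to 0.52 with ImuBcl6), so the numbers were not taken as pairs. The difference between backgrounds had 1 member called by DESeq2 and 0 by limma. The causes were not tested. Among the called members and the members with the smallest p, no fold change turned its sign. Of members named for their role, 8 turned between libraries labelled KO and Cre controls without replicate 3, as given above, and 0 were called. Rpl4 and Rpl7 were called in all 19 settings with ImuBcl6, Rps24 in 16, Rpl22l1 in 15, Rps23 in 12, and Rpl36a and Rpl37a in 10. Leaving out replicate 3 of the group labelled KO with CPM over listed reads, or in its contrast with D370Y, both chosen after seeing the data, called 0 members. Members at a few CPM rest on few reads in D370Y and WT libraries.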
